A study of Aedes aegypti with 7 samples.

Results

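MicroRNAs (miRNAs) of the fat body of the yellow fever mosquito, Aedes aegypti, were followed across the step from 24 to 36 h post blood meal (PBM), in which the fat body ends its production of yolk protein. The comparison used the small RNA libraries of those time points, 3 at 24 h and 3 at 36 h PBM, 6 of the 15 small RNA libraries of the series. All came from adult females of the strain UGAL/Rockefeller, which were offered blood 3 or 4 days after they emerged. The other small RNA libraries, from 72 h post eclosion (PE, before blood) and from 6 and 48 h PBM, served to estimate the spread between libraries and to show where the step lies in the cycle. The series' design text calls the 3 libraries of a time independent biological replicates. The p-values of the main tests set a difference between times against the spread between such replicates, estimated over all 15 libraries. The females at 36 h were also older than those at 24 h, so the time since the meal and age cannot be told apart.

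A miRNA is a short RNA that guides an Argonaute protein, AGO1 in insects, to messenger RNAs that are then repressed. It is cut from a hairpin precursor whose left and right arms can each give a mature miRNA, named 5p and 3p. Usually 1 arm is kept by Argonaute and the other is degraded, so the ratio of the arms is often followed apart from the level of either. The fat body, the insect counterpart of liver and adipose tissue, secretes vitellogenin and other yolk proteins into the blood after a meal, and the ovary takes them up. That secretion is switched on by amino acids and the steroid hormone 20-hydroxyecdysone and is then shut down as the eggs finish taking up yolk.

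The 6 libraries held 8558678 to 22284705 reads, of which 2112431 to 5566777 were assigned to miRNAs. The miRNA share of all reads was 22.76, 23.92 and 23.70% at 24 h and 24.68, 24.98 and 21.06% at 36 h, with overlapping groups (exact permutation test, two-sided, p = 1, where 0.1 is the smallest p that 3 against 3 allows). In separate libraries, the 3 CLIP-seq libraries of 24 h PBM, Vitellogenin-A1, the main yolk protein gene, took 1.45, 2.64 and 1.87% of the AGO1-bound counts and ranked 3 among genes. That checks the tissue label of those libraries only, not of the 6 small RNA libraries. Messenger RNA at 36 h was not analysed here. One 36 h library, replicate 1, was the shallowest and stood furthest from its group, with a median absolute log2 distance of 0.498 from the other 2 libraries, against 0.296 to 0.298 for the other 36 h libraries and 0.200 to 0.274 at 24 h. In another, 36 h replicate 2, the summed level of midgut-marker miRNAs was 34273 CPM (counts scaled to 1000000 miRNA reads). Of that sum, miR-281-5p alone gave 33159 CPM. The sum was 5468 to 6586 CPM in the other 36 h libraries and 5798 to 11865 CPM at 24 h. These libraries were kept. Values without them are given below where the call of a named miRNA or ratio changed, and otherwise only for some.

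Between 24 and 36 h, 20 of the 114 tested miRNAs changed, or 17.5%. The table lists 124 mature miRNAs, and the 10 left untested had at most 11 reads in any of the 6 libraries. A miRNA was called where edgeR's quasi-likelihood test gave a Benjamini-Hochberg adjusted p under 0.05, two-sided, and every adjusted p of a miRNA below comes from that test unless another is named. Higher at 36 h were 11 miRNAs (9.65% of those tested) and lower were 9 (7.89%). The median log2 change over all tested miRNAs was 0.02, and 70 of the 114 differed by less than 1.5-fold between the times. All 10 miRNAs that differed by 4-fold or more were called. At an unadjusted p under 0.05 stood 36 miRNAs, 18 in each direction. The 3 values of one time lay wholly above or below the 3 of the other for 42 miRNAs (36.8% of those tested), among them all 20 that were called.

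**Figure D1:**
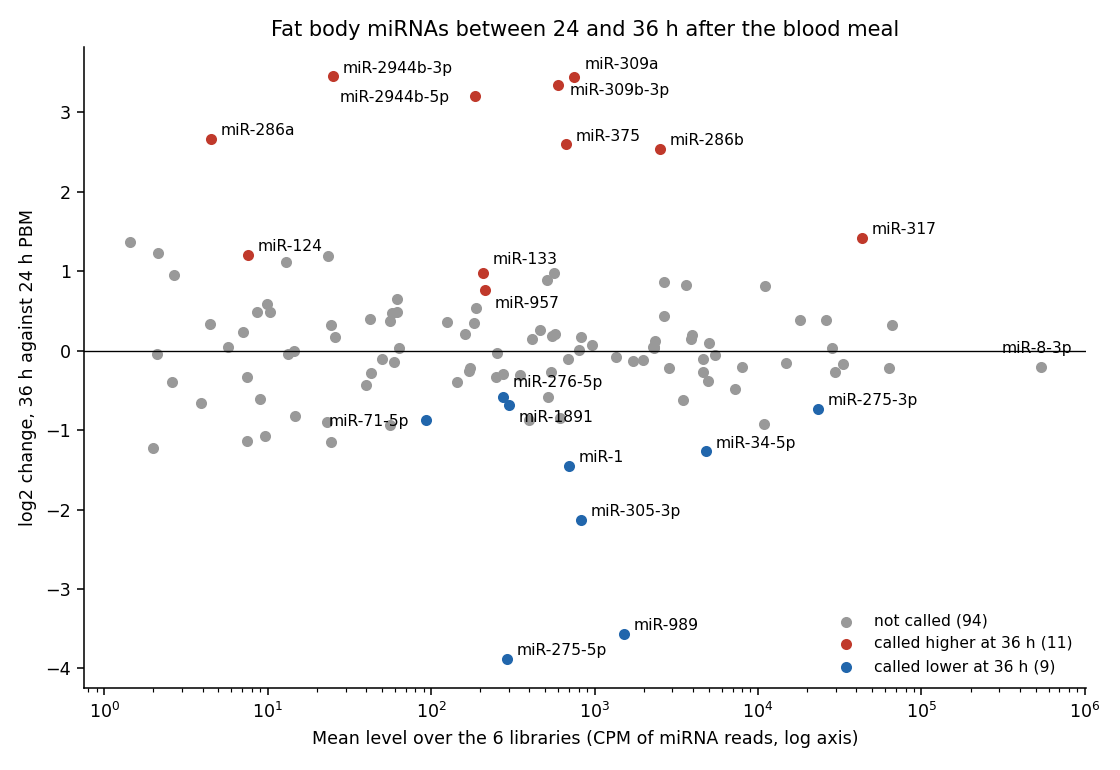
Each point is 1 of the 114 tested miRNAs, with its mean level over the 6 libraries on the x axis (CPM, log axis) and its log2 change from 24 to 36 h PBM on the y axis. The 11 miRNAs called higher and the 9 called lower are named and coloured, and the most abundant miRNA, miR-8-3p, lies near the line of no change.

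The clearest rise was in miRNAs known from the ovary and the early embryo. Of the 16 miRNAs on this list, 13 were tested, 6 were called higher, 1 was called lower and 6 were not called. The list's median log2 change was 1.23, beside 0.02 over all tested miRNAs. That median is the value of the rare miR-2944a-5p, which had 0 to 13 reads a library and was not called (adjusted p = 0.303). The 6 called higher lay above it, at 2.53 to 3.45, and the other 6 below it, at -3.57 to 0.89. Over all tested miRNAs, 9.65% were called higher and 7.89% lower. The 6 called higher were the a and b forms of miR-286 and miR-309 and both arms of miR-2944b. The summed level of the list was 4490 to 12626 CPM at 24 h and 10141 to 16276 CPM at 36 h, so the sums overlapped. The list was drawn up with earlier results of these data known. In a bulk tissue sample, more cells of a type and more RNA per cell cannot be told apart, and whether RNA of ovary or eggs contributed was not tested. The list's miR-309b-5p had no read in any of the 6 libraries.

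The rise was shared by relatives of the Drosophila miR-309 cluster, whose members clear maternal messenger RNAs in the early fly embryo. miR-286b, the most abundant of those that rose, stood at 296, 708 and 1213 CPM at 24 h and 3942, 4018 and 4885 CPM at 36 h. The lowest of its 36 h values was above the highest of its 24 h values, and the rise was 5.79-fold (log2 change 2.53, SE 0.47, adjusted p = 0.00225). miR-309a, which is linked to follicle growth in the ovary of this mosquito, stood at 55.4, 122 and 203 CPM at 24 h and 1708, 939 and 1494 CPM at 36 h. It rose 10.9-fold (log2 change 3.45, SE 0.54, adjusted p = 7.18e-04) with no overlap between the times. Its paralog miR-309b-3p followed the same order over the 6 libraries, at 45.8, 102 and 178 CPM at 24 h and 1358, 748 and 1178 CPM at 36 h. That rise was 10.1-fold (log2 change 3.34, SE 0.57, adjusted p = 0.00118). How reads that fit both paralogs were assigned is not given in the sources used here, so the a and b forms may not be separate measurements.

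Both arms of miR-2944b rose together. The 5p arm stood at 30.7, 30.4 and 48.6 CPM at 24 h and 494, 202 and 315 CPM at 36 h, a rise of 9.22-fold (log2 change 3.20, SE 0.48, adjusted p = 6.59e-04). The rarer 3p arm, with 9, 31 and 12 reads at 24 h and 161, 169 and 133 reads at 36 h, rose 10.9-fold (log2 change 3.45, SE 0.56, adjusted p = 8.60e-04). Neither arm overlapped between the times. The rarest member that rose was miR-286a, at 4, 6 and 4 reads at 24 h and 25, 30 and 26 reads at 36 h, or 6.36-fold (log2 change 2.67, SE 0.59, adjusted p = 0.00662). Its 24 h levels of 1.04, 1.11 and 1.46 CPM were near the 0.511 to 1.40 CPM that 3 reads give. With limma on the authors' scaled values and 1 added to each, its log2 change was 1.14. Within 24 h, replicate 3 held the highest level of miR-286a, miR-286b, miR-309a, miR-309b-3p and miR-2944b-5p. Within 36 h, replicate 2, the library with the highest midgut-marker sum, held the lowest level of all of these but miR-286b. These 6 calls remained under every alternative in which the miRNA was tested. miR-286a was not tested under the filter of 10 CPM, which removed it.

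miR-989, an ovary-enriched miRNA of mosquitoes, went the opposite way. It stood at 1375, 2036 and 4971 CPM at 24 h and 144, 189.6 and 372 CPM at 36 h. The fall was 11.9-fold (log2 change -3.57, SE 0.72, adjusted p = 0.00365), and the highest 36 h value lay well under the lowest 24 h value. The size rests in part on 24 h replicate 3, its highest library, without which the log2 change was -2.86 with an adjusted p of 0.0138. On the same list, then, miR-989 fell in the interval in which 6 other members rose.

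The other 6 tested members of the list were not called. miR-2941 and miR-2946, which are abundant in mosquito eggs and embryos and whose AGO1 peaks lie 366 bases apart on AaegL3 supercontig 1.385, rose in the mean but overlapped between the times. miR-2941 stood at 1456, 1892 and 4471 CPM at 24 h and 6356, 2733 and 4806 CPM at 36 h (log2 change 0.83, SE 0.45, adjusted p = 0.228). For miR-2946 the levels were 187, 288 and 607 CPM at 24 h and 741, 449 and 815 CPM at 36 h (log2 change 0.89, SE 0.50, adjusted p = 0.236). Without 24 h replicate 3, the highest 24 h library of both, miR-2941 passed the threshold (log2 change 1.47, adjusted p = 0.0381). miR-2945-3p was nearly level, at 947 ± 69.4 CPM at 24 h and 993 ± 384 CPM at 36 h (SD, n = 3) (log2 change 0.07, adjusted p = 0.876). Its partner miR-2945-5p had a log2 change of -0.61 (adjusted p = 0.266). The rare miR-2942 and miR-2944a-5p stayed at 3.01 ± 0.744 and 1.11 ± 1.03 CPM at 24 h and 2.21 ± 1.06 and 3.14 ± 2.57 CPM at 36 h, near the 0.511 to 1.40 CPM that 3 reads give. Their log2 changes were -0.39 (adjusted p = 0.738) and 1.23 (adjusted p = 0.303).

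**Figure D2:**
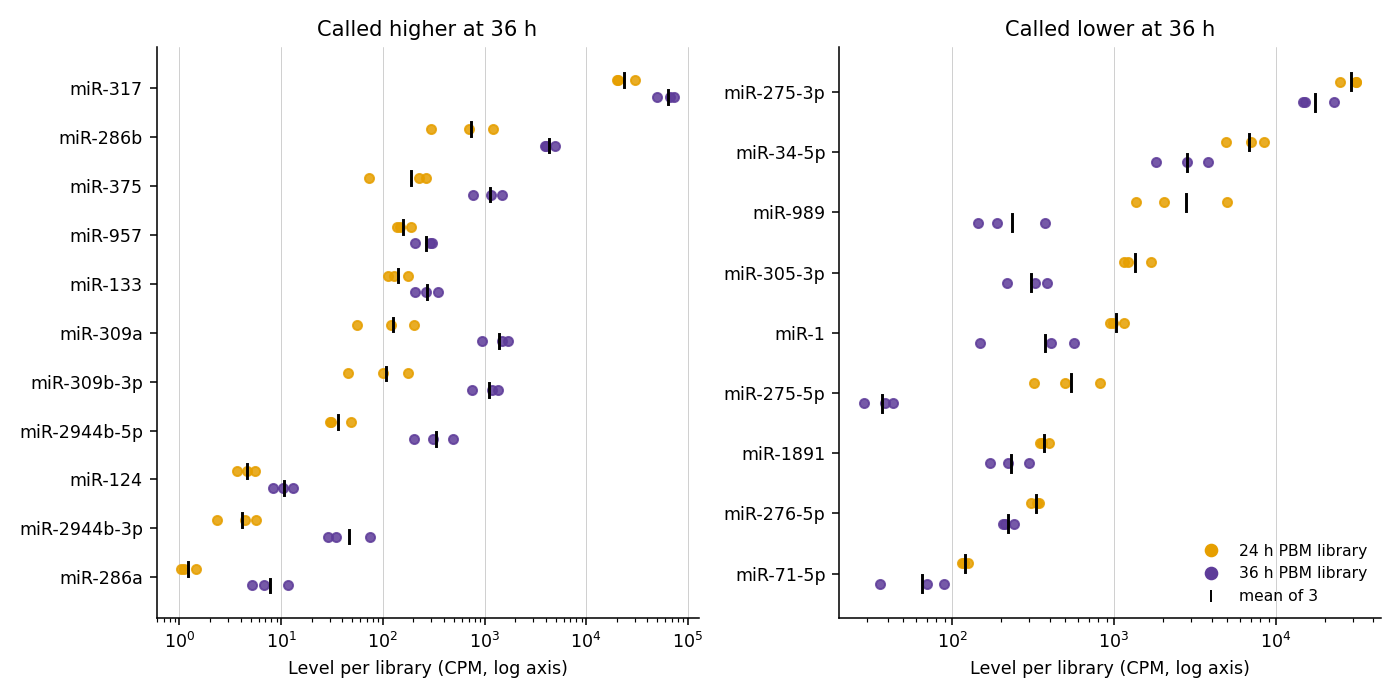
Level of each called miRNA in every library (CPM, log axis), with 3 orange points for 24 h PBM, 3 purple points for 36 h PBM and a black bar at each mean. The left panel holds the 11 miRNAs called higher at 36 h and the right panel the 9 called lower, and in none of the 20 do the points of the 2 times overlap.

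miR-375, which is known in insects from the gut and from neuroendocrine cells, was the only midgut-list miRNA called. Its level was 269, 227 and 72.4 CPM at 24 h and 1489.5, 775 and 1168 CPM at 36 h. The 36 h values were all above those at 24 h, and the rise was 6.04-fold (log2 change 2.59, SE 0.55, adjusted p = 0.00463). The other 5 midgut-list miRNAs, the arms of miR-281 and miR-1175 and miR-1174, had log2 changes from -1.14 to 0.81 and adjusted p of 0.721 to 0.824. The 36 h library with the highest sum of midgut markers, replicate 2, had the lowest miR-375 of that time. That sum, which includes miR-375, came mostly from miR-281-5p. Without replicate 2, miR-375 remained called. Whether RNA of the midgut contributed to the rise was not tested.

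The miRNAs that fell included 3 of the 4 arms of miR-275 and miR-305. These precursors lie on AaegL3 supercontig 1.24, where the AGO1 peaks that the authors annotate to them span positions 486550 to 495660 on the plus strand, with 8985 bases between the peaks of miR-275 and those of miR-305. miR-275 is needed in this mosquito for digestion of the blood meal and for egg development, and miR-305 tunes insulin and Notch signalling in the Drosophila gut. The list's median log2 change was -1.43, and all 4 arms lay lower in every 36 h library than in any 24 h library. Of all 114 tested miRNAs, 9 (7.89%) were called lower, and 23 lay lower in every 36 h library than in any 24 h library.

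The rare arms fell most. miR-275-5p stood at 815, 495 and 323 CPM at 24 h and 28.5, 43.1 and 38.7 CPM at 36 h, a fall of 14.8-fold (log2 change -3.88, SE 0.50, adjusted p = 2.00e-04) and the largest change of any tested miRNA. miR-305-3p stood at 1693, 1147 and 1215 CPM at 24 h and 218, 324 and 385 CPM at 36 h, a fall of 4.37-fold (log2 change -2.13, SE 0.25, adjusted p = 1.85e-04) with the smallest adjusted p of the comparison. Both calls remained under every alternative. The abundant arms moved less. miR-275-3p, among the 10 most abundant miRNAs, stood at 31403, 24836 and 31244 CPM at 24 h and 22656, 14750.1 and 15052 CPM at 36 h and fell 1.67-fold (log2 change -0.74, SE 0.21, adjusted p = 0.0253). That call was lost without 24 h replicate 1, 24 h replicate 3 or 36 h replicate 3 (adjusted p = 0.0718 to 0.0774). miR-305-5p, at 5014, 5454 and 6277 CPM at 24 h and 4975, 3885 and 3996 CPM at 36 h, did not pass (log2 change -0.38, SE 0.14, adjusted p = 0.0788), although without 36 h replicate 1 or replicate 2 it did (adjusted p = 0.0293 and 0.0350). With a replicate block it passed as well (adjusted p = 0.0452).

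Members of the group that holds miR-277, miR-34 and miR-317 in insects moved in different directions. On AaegL3 the AGO1 peaks of miR-277 and miR-34 share supercontig 1.265, at 508811 to 509637 on the plus strand with 652 bases between them, while the peak of miR-317-1 is on supercontig 1.153. miR-277 controls branched-chain amino acid breakdown in Drosophila and lipid storage in Aedes, and miR-34 is linked to ageing and to immunity in flies. Of 5 tested arms, 1 was called higher, 1 was called lower and 3 were not called, and the median log2 change was 0.18.

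miR-317 made up 3.01, 2.12 and 1.79% of miRNA reads at 24 h and 5.02, 7.10 and 7.14% at 36 h. In CPM it stood at 30269.6, 20574 and 20049 CPM at 24 h and 49533, 67381 and 72869 CPM at 36 h. The times did not overlap and the rise was 2.68-fold (log2 change 1.42, SE 0.37, adjusted p = 0.0191), the largest gain in reads of any called miRNA. The call was lost without 24 h replicate 2 or 3 or 36 h replicate 2 or 3 (adjusted p = 0.0505 to 0.0742), with log2 changes of 1.15 to 1.33 there. miR-34-5p stood at 8422, 4888 and 6997 CPM at 24 h and 1818, 2818 and 3787 CPM at 36 h, and every 36 h value was under every 24 h value. It fell 2.41-fold (log2 change -1.27, SE 0.24, adjusted p = 0.00263). Over all alternatives the log2 change of miR-34-5p ranged from -1.54 to -1.04. Its partner miR-34-3p was at 781 ± 162 CPM at 24 h and 883 ± 154 CPM at 36 h (SD, n = 3) with a log2 change of 0.18 that was not called (adjusted p = 0.721). miR-277-3p, the abundant arm of its pair, was at 3685 ± 326 CPM at 24 h and 4209 ± 569 CPM at 36 h (SD, n = 3) (log2 change 0.19, adjusted p = 0.460), and the rare miR-277-5p was at 15.3, 12.5 and 11.3 CPM at 24 h and 4.20, 6.30 and 7.79 CPM at 36 h (log2 change -1.08, adjusted p = 0.0849).

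The muscle miRNAs miR-1 and miR-133 moved apart. miR-1 stood at 947, 981 and 1151 CPM at 24 h and 149, 407 and 569 CPM at 36 h, the lowest value being in the 36 h library that stood furthest from its group. It fell 2.73-fold (log2 change -1.45, SE 0.39, adjusted p = 0.0214). The call was lost without 24 h replicate 3 (adjusted p = 0.0579). Over all alternatives the log2 change of miR-1 ranged from -1.88 to -1.07. miR-133 stood at 128, 113 and 177 CPM at 24 h and 352, 205 and 264 CPM at 36 h and rose 1.96-fold (log2 change 0.97, SE 0.28, adjusted p = 0.0271). That call was lost without 24 h replicate 1 or 2 or 36 h replicate 1 or 3 (adjusted p = 0.0505 to 0.107). Both markers were detected in all 6 libraries, and their sum was 1075 to 1329 CPM at 24 h and 501 to 833 CPM at 36 h. Whether the amount of muscle in the samples played a part was not tested.

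Among the neural miRNAs, 1 of 4 was called. miR-124, which is specific to neurons in flies and vertebrates, was rare, with 14, 25 and 15 reads at 24 h and 28, 49 and 40 reads at 36 h. Its level of 3.64, 4.61 and 5.49 CPM at 24 h and 13.1, 8.35 and 10.4 CPM at 36 h did not overlap between the times, a rise of 2.30-fold (log2 change 1.20, SE 0.27, adjusted p = 0.00743). The neural miR-7 went the other way, at 28.9, 33.0 and 39.5 CPM at 24 h and 5.14, 16.9 and 22.9 CPM at 36 h. Those values did not overlap either, but miR-7 was not called (log2 change -1.15, adjusted p = 0.149). For miR-137 and miR-210 the log2 changes were -0.10 and 0.48 (adjusted p = 0.863 and 0.721). The sum of the 4 neural miRNAs, none of them at 0, was 91.2 to 111 CPM at 24 h and 53.7 to 119 CPM at 36 h, so the list did not rise with miR-124. Its part in the result was not tested.

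The last 4 called miRNAs changed by less than 2-fold. miR-276-5p, the rare arm of an abundant pair, stood at 336, 305 and 346 CPM at 24 h and 212, 243 and 207 CPM at 36 h and fell 1.49-fold (log2 change -0.58, SE 0.16, adjusted p = 0.0253). miR-71-5p stood at 118, 116 and 125 CPM at 24 h and 36.0, 70.4 and 89.3 CPM at 36 h and fell 1.83-fold (log2 change -0.87, SE 0.26, adjusted p = 0.0352). In each, the 36 h values lay under those of 24 h. miR-1891, a miRNA known from mosquitoes, stood at 397, 361 and 350.4 CPM at 24 h and 172, 221 and 298 CPM at 36 h and fell 1.60-fold (log2 change -0.68, SE 0.21, adjusted p = 0.0361). miR-957 stood at 138, 147 and 189 CPM at 24 h and 308, 208 and 289 CPM at 36 h and rose 1.70-fold (log2 change 0.76, SE 0.24, adjusted p = 0.0392). All 4 calls depended on single libraries. That of miR-276-5p was lost without 24 h replicate 1 or 3 or 36 h replicate 1 or 3 (adjusted p = 0.0553 to 0.0774), and that of miR-71-5p without any 1 of the 24 h libraries (0.0756 to 0.0806). The call of miR-1891 was lost without any 24 h library or 36 h replicate 1 (0.0650 to 0.106), and that of miR-957 without 24 h replicate 1 or 2 or any 36 h library (0.0572 to 0.126).

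The 10 most abundant miRNAs held a like share of the pool at both times, although single members moved within it. Together they made up 86.1% ± 0.359 of miRNA reads at 24 h and 86.1% ± 1.07 at 36 h (SD, n = 3). miR-8-3p, which in this fat body acts on a regulator of Wingless secretion after the blood meal, alone made up 55.7, 56.4 and 55.1% at 24 h and 56.9, 48.5 and 46.6% at 36 h. One 36 h library lay above all 24 h libraries and the other 2 lay below them (exact permutation test, two-sided, p = 0.4, adjusted over 12 shares 0.600). Counting error on these shares was small, with Wilson 95% half-widths of at most 0.0668 percentage points. The difference of its means was -5.08 percentage points, and that of miR-317, which rose, was 4.11 points. In the count test the log2 change of miR-8-3p was -0.20, with a 95% interval of -0.49 to 0.08 (adjusted p = 0.303).

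Only miR-317 and miR-275-3p of those 10 were called. miR-184, a germline miRNA of Drosophila females, ranged from 31587 to 121286 CPM within 36 h, and its interval of -0.73 to 1.38 on the log2 scale was wide. Bantam-3p, a growth regulator in flies, had a log2 change of -0.22 (95% interval -0.56 to 0.12). The remaining ones, miR-276-3p, miR-11-3p, miR-14, miR-2940-3p and miR-8-5p, had log2 changes of -0.17, -0.27, 0.03, 0.38 and 0.38. miR-11-3p lay lower in every 36 h library, at 31365, 31281 and 34034 CPM at 24 h and 26629, 27378 and 25938 CPM at 36 h, yet did not pass (adjusted p = 0.236). miR-8-5p, the rare arm of miR-8, came closest, at 13438, 14283 and 19363 CPM at 24 h and 23134, 18195 and 20010.0 CPM at 36 h (adjusted p = 0.110), with overlap in 1 library of 24 h. Without that library, 24 h replicate 3, it passed the threshold (log2 change 0.56, adjusted p = 0.0281). It also passed in DESeq2 (DESeq2 adjusted p = 0.0131), with a filter of 10 CPM (0.0246) and, narrowly, without a filter. Under the other 11 of 15 alternatives it was not called.

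Several lists held no called miRNA. The K-box family (miR-2, miR-11, miR-13 and miR-308) had 10 tested miRNAs, none called by edgeR or DESeq2 and none at an unadjusted p under 0.05, with a median log2 change of 0.08. All 8 tested miRNAs of the miR-9 family and its neighbours had negative log2 changes, with a median of -0.25. None of those 8 was called by edgeR, 2 had an unadjusted p under 0.05 and DESeq2 called 2. The let-7 complex, which times development in flies, had 3 tested miRNAs and none called by either tool, with 1 at an unadjusted p under 0.05 and a median of -0.12. The 6 lipid- and insulin-linked miRNAs (arms of miR-8 and miR-278, miR-14 and miR-33) had a median of -0.01, with none called by edgeR, 1 at an unadjusted p under 0.05 and 1 called by DESeq2. The miR-12 cluster, the Hox locus, the miR-92 family and the growth list (bantam arms and miR-184), with 3, 2, 3 and 3 tested miRNAs, had medians of 0.03, 0.23, 0.19 and -0.22. In those 4 lists neither tool called a miRNA and none had an unadjusted p under 0.05. The pair miR-279 and miR-996 and the 3 tested arms of miR-263 had medians of -0.35 and -0.15, with none called by either tool and 1 each at an unadjusted p under 0.05. Of the 6 mosquito-restricted miRNAs 1 was called, miR-1891, with a list median of 0.29, and of the 2 arms of miR-276 1 was called, with a median of -0.37. In no list were 29 tested miRNAs, of which edgeR called 2, miR-71-5p and miR-957. Among miRNAs that were not called, the changes of largest size were those of miR-92a-5p (log2 change 1.36, adjusted p = 0.204), miR-79-5p (-1.23, adjusted p = 0.187) and miR-2944a-5p, with at most 15 reads in any of the 6 libraries. Without 36 h replicate 2, miR-79-5p was called lower (log2 change -2.66, adjusted p = 0.0184).

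**Figure D3:**
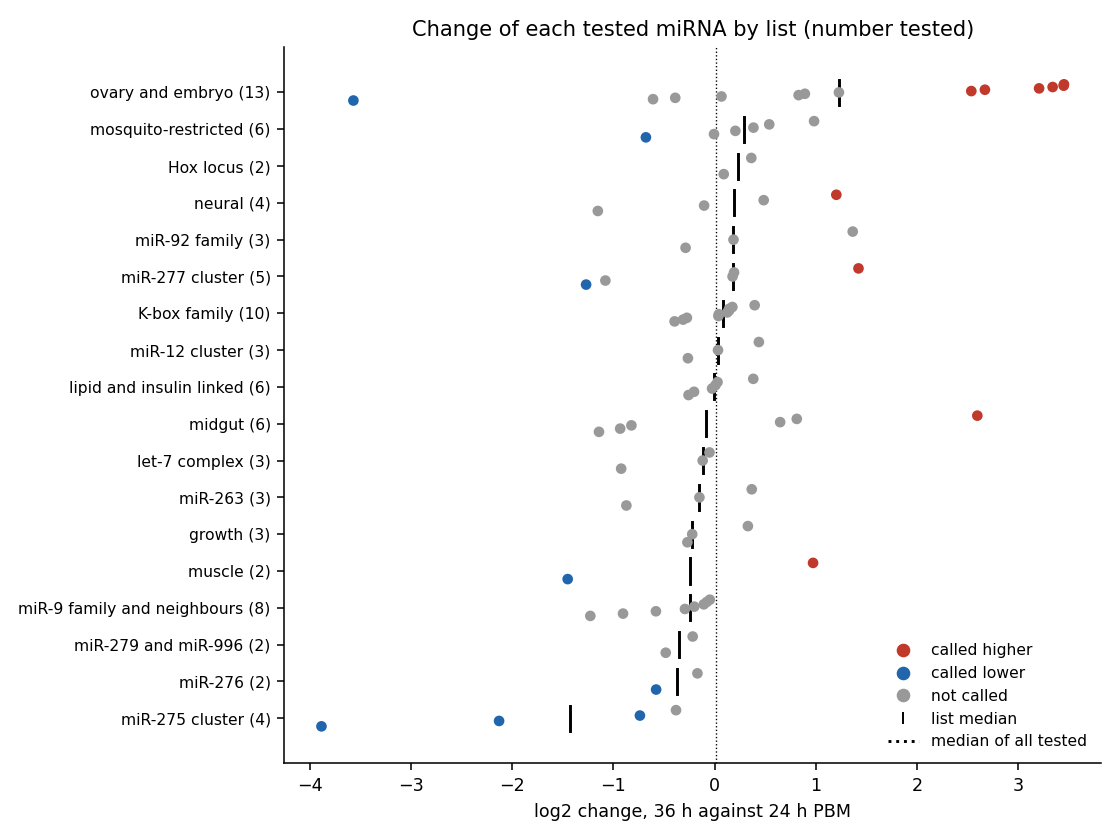
Log2 change from 24 to 36 h PBM of every tested miRNA of the 18 lists, ordered by list median (black bar), with red for called higher, blue for called lower and grey for not called. The ovary and embryo list has the highest median (1.23) and the miR-275 cluster the lowest (-1.43), on either side of the dotted median of all tested miRNAs (0.02). The highest median is the value of the rare miR-2944a-5p, which was not called.

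Arm ratios were compared for precursors with both arms listed. Of 36 such pairs, 26 had 10 or more reads for each arm on average and were tested, and the ratio of the rarer to the more abundant arm changed in 5, or 19.2% of those tested (limma on log2 ratios with 0.5 reads added to each arm, Benjamini-Hochberg adjusted p under 0.05, two-sided). Of these, 1 was higher and 4 were lower at 36 h. The median log2 change over the 26 ratios was -0.22, with 17 negative and 9 positive, and 9 had an unadjusted p under 0.05. Values of the times did not overlap for 8 ratios (30.8%), among them the 5 called. A ratio within a library does not depend on how libraries are scaled, but it shows unequal change of the arms, not which arm moved.

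For miR-275, the 5p arm made up 2.53, 1.95 and 1.02% at 24 h and 0.126, 0.291 and 0.256% at 36 h of the reads of both arms. Each 36 h share was under each 24 h share, and the ratio fell 8.23-fold (log2 change of the ratio -3.04, SE 0.53, adjusted p = 8.52e-04). Both arms were lower in every 36 h library, the rare one by more. For miR-305, the 3p arm made up 25.2, 17.4 and 16.2% at 24 h and 4.19, 7.70 and 8.79% at 36 h. That ratio fell 3.39-fold (log2 change of the ratio -1.76, SE 0.31, adjusted p = 8.52e-04), again without overlap and again with both arms lower in every 36 h library. In both neighbouring precursors the rarer arm thus fell further than its partner, although it is the 5p arm of miR-275 and the 3p arm of miR-305.

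For miR-34 the 3p arm made up 9.81, 10.9 and 10.6% at 24 h and 32.9, 20.5 and 21.4% at 36 h. All 36 h shares were above those of 24 h, highest in replicate 1, and the ratio rose 2.79-fold (log2 change of the ratio 1.48, SE 0.29, adjusted p = 0.00159). Over the alternatives that log2 change ranged from 1.18 to 1.65, and the ratio remained called. The level of miR-34-5p fell while that of miR-34-3p was not called. For miR-71 the rarer arm is 5p, which made up 5.20, 6.49 and 6.34% at 24 h and 0.734, 2.86 and 2.80% at 36 h. Its ratio fell 3.44-fold (log2 change of the ratio -1.78, SE 0.43, adjusted p = 0.00709) with no overlap. Without 36 h replicate 1, the lowest library, the log2 change was -1.13 and the ratio remained called (adjusted p = 0.00715). The level of the abundant arm miR-71-3p was higher in every 36 h library, at 2151, 1670.2 and 1849 CPM at 24 h and 4859, 2389 and 3097 CPM at 36 h, but just missed the threshold (log2 change 0.87, adjusted p = 0.0544). It passed in DESeq2 (DESeq2 adjusted p = 0.0199), with library totals in place of TMM (0.0389), with a replicate block (0.00701) and without 48 h replicate 3 (0.0451). Under the other 11 of 15 alternatives it was not called. miR-71 extends life span in the worm C. elegans. On AaegL3 its AGO1 peaks have the highest positions in a run with miR-2 and miR-13 peaks on the minus strand of supercontig 1.268.

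The ratio of miR-277 was called on few reads. Its 5p arm, with 9 to 68 reads a library, made up 0.433, 0.308 and 0.326% at 24 h and 0.0877, 0.150 and 0.213% at 36 h. The ratio fell 2.45-fold (log2 change of the ratio -1.29, SE 0.42, adjusted p = 0.0422), but the call was lost without any 1 of 5 of the 6 libraries, 36 h replicate 3 being the exception (adjusted p = 0.0653 to 0.143). For miR-8, the most abundant pair, the 5p arm made up 2.34, 2.54 and 3.05% at 24 h and 3.96, 3.80 and 4.04% at 36 h. These groups did not overlap either, yet the ratio did not pass (log2 change 0.60, SE 0.21, adjusted p = 0.0532). The rare miR-1175, a gut miRNA of mosquitoes, had a log2 change of the ratio of -1.12 with overlapping groups (adjusted p = 0.116) and only 4 to 220 reads a library over both arms. Its arms had log2 changes in level of -0.82 for 3p and -1.14 for 5p (adjusted p = 0.752 and 0.721). Wilson 95% half-widths of the shares, which cover counting error only, were at most 0.0874 percentage points for miR-275, 0.530 for miR-305, 1.21 for miR-34 and 0.650 for miR-71.

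**Figure D4:**
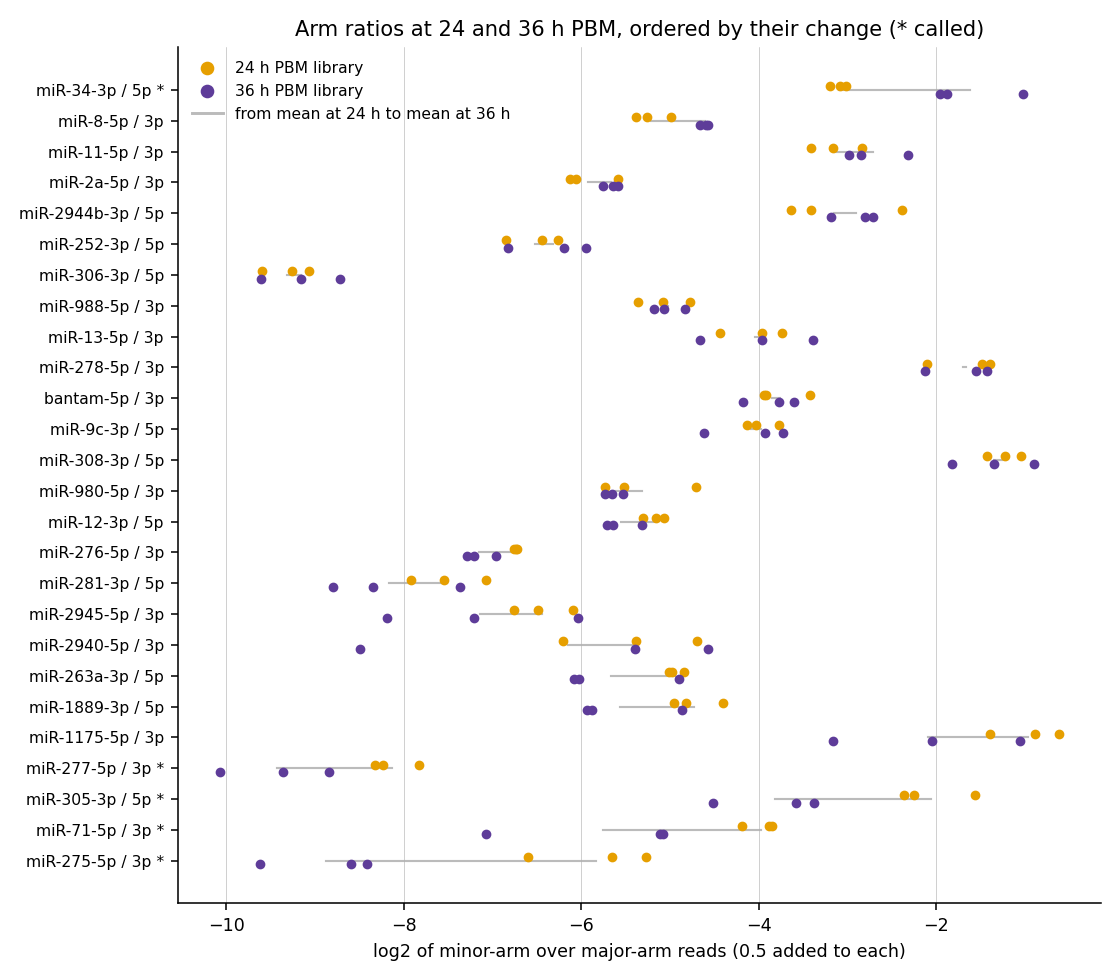
Log2 ratio of rarer-arm to more abundant-arm reads of 26 precursors in each library, orange for 24 h and purple for 36 h PBM, with a grey line from the mean at 24 h to the mean at 36 h and the precursors ordered by change. The called ratios, marked with *, are miR-34 at the top and miR-275, miR-71, miR-305 and miR-277 at the bottom, and the lines of most others are short beside the spread of their points.

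AGO1 CLIP-seq, in which RNA bound by AGO1 is linked to it by ultraviolet light, pulled down and sequenced, gave a view of the arms at the start of the step. Summed over the 3 libraries of 24 h PBM, miR-275-5p held 5 of the 5407 counts in the peaks of both miR-275 arms, and miR-305-3p held 6 of 12017. The shares were thus 0.0925% and 0.0499%, beside 1.84% and 19.6% of the small RNA reads of the same time. At 24 h, then, both of these arms were far rarer among AGO1-bound counts than in total small RNA. miR-34-3p held 410 of 9602 counts, or 4.27%, beside 10.4% of small RNA reads. The opposite held for miR-71-5p, whose share of its pair also fell by 36 h, with 52 of 102 counts (51.0%) beside 6.01% of reads. It also held for miR-277-5p, with 8 of 615 counts (1.30%) beside 0.355%. Both directions also occurred among pairs whose ratio was not called. There the rarer arm was less frequent in AGO1-bound counts for pairs such as miR-8 and bantam. It was more frequent for pairs such as miR-308 and miR-281. Neither direction was thus particular to the called pairs. The differences between the assays were not tested, and AGO1 binding at 36 h was not analysed here.

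The step differed in shape among the called miRNAs when set beside the other times. Those comparisons share libraries with the step, so their values are only set side by side. From 6 to 24 h, 17 of the 114 tested miRNAs were called (14.9%), and from 36 to 48 h 0 of the 114 were. Means below run from 72 h PE through 6, 24, 36 and 48 h PBM, each with the SD of 3 libraries. miR-286b averaged 14.1 ± 2.76, 2.36 ± 0.620, 739 ± 459, 4282 ± 524 and 1100.3 ± 572 CPM. Few of its reads were present before 24 h, its log2 change from 6 to 24 h was 8.25 (SE 0.64, adjusted p = 6.44e-07), and its mean was highest at 36 h. miR-309a averaged 3.46 ± 0.833, 1.32 ± 0.545, 127 ± 73.9, 1380.3 ± 397 and 1008 ± 625 CPM. Its log2 change was 6.56 (SE 0.66, adjusted p = 5.11e-06) from 6 to 24 h and -0.45 (SE 0.49, adjusted p = 0.600) from 36 to 48 h. miR-989 averaged 908 ± 395, 2.26 ± 1.47, 2794 ± 1914, 235 ± 121 and 877 ± 574 CPM. Its fall in the step followed a rise from 6 to 24 h with a log2 change of 10.31 (adjusted p = 3.74e-06).

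The rare arms of miR-275 and miR-305 stood near their 24 h levels at 6 h, while the abundant arms rose between those times. From 6 to 24 h the log2 change was -0.05 (SE 0.44, adjusted p = 0.949) for miR-275-5p and 0.31 (SE 0.24, adjusted p = 0.460) for miR-305-3p. Over the same interval it was 1.03 (SE 0.21, adjusted p = 0.00262) for miR-275-3p and 0.60 (SE 0.14, adjusted p = 0.00802) for miR-305-5p. miR-275-5p averaged 28.9 ± 15.7, 564 ± 83.3, 544 ± 250.0, 36.8 ± 7.50 and 34.8 ± 15.4 CPM over the 5 times. Its log2 change from 72 h PE was 4.23 (SE 0.51, adjusted p = 2.37e-05) at 24 h and 0.35 (SE 0.45, adjusted p = 0.615) at 36 h. miR-275-3p averaged 7027 ± 815, 14314 ± 2336, 29161 ± 3746, 17486 ± 4479.8 and 13406 ± 2694 CPM. At 36 h it was still above 72 h PE, by a log2 change of 1.32 (SE 0.21, adjusted p = 4.35e-04). As a share of its pair, miR-305-3p averaged 5.48% ± 0.995, 22.9% ± 0.969, 19.6% ± 4.91, 6.89% ± 2.40 and 7.85% ± 1.30, high at 6 and 24 h and low at the other times. The share of miR-34-3p ran the other way and averaged 26.6% ± 4.33, 13.9% ± 3.93, 10.4% ± 0.581, 24.9% ± 6.94 and 20.9% ± 0.854, lowest at 24 h.

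miR-375 and miR-317 reached their highest means at 36 h, and the change from 36 to 48 h was called for neither. miR-375 averaged 119 ± 51.8, 70.2 ± 37.7, 189 ± 103, 1144 ± 358 and 992 ± 250.4 CPM, with a log2 change of -0.21 (SE 0.51, adjusted p = 0.817) from 36 to 48 h. miR-317 averaged 21926 ± 8097, 14325 ± 5845, 23631 ± 5755, 63261 ± 12201 and 29829 ± 11994 CPM, with a log2 change of -1.08 (SE 0.37, adjusted p = 0.120) after the step. The difference between these changes was not tested. miR-1 averaged 321 ± 67.0, 599 ± 188, 1027 ± 109, 375 ± 212 and 578 ± 57.4 CPM, highest at 24 h.

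**Figure D5:**
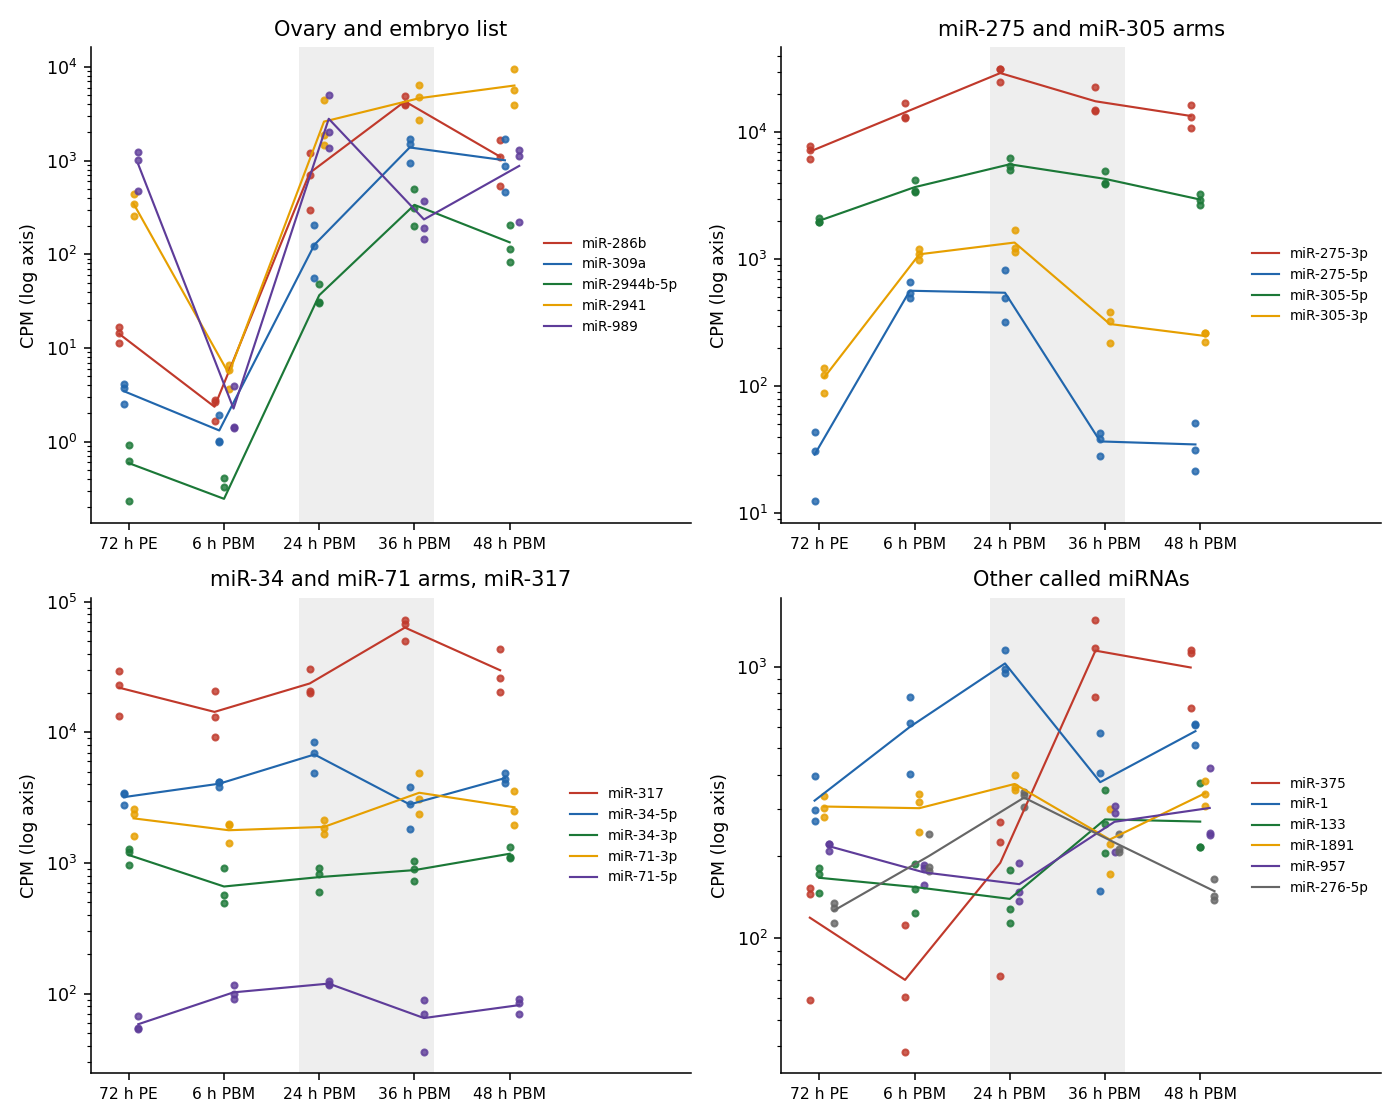
Level of selected miRNAs in every library at the 5 time points (CPM, log axis), with lines through the means of 3 libraries and the step from 24 to 36 h shaded. The miRNAs of the miR-309 group rise through 24 to 36 h while miR-989 falls, the rare arms miR-275-5p and miR-305-3p drop between 24 and 36 h, and miR-375 rises (a library at 0, as for miR-2944b-5p at 6 h, has no point on a log axis).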

How the data were processed

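The deposited table gives read counts of 124 mature miRNAs of miRBase release 21 in 15 libraries, unscaled, together with values in RPM that the authors scaled to each library's total reads, per the file headers. Total reads were recovered from those RPM. Per the labels' protocols, libraries were made with the TruSeq kit for small RNA from TRIZOL extracts. Tools named without a role in the submitters' processing notes are R 3.1.2, bedtools 2.17.0, TopHat2 2.0.14 and Bowtie2 2.2.3. The deposited CLIP-seq table gives counts per AGO1 peak and library on AaegL3 supercontigs, and positions are printed unchanged. Whether they start at 0 or 1 is not stated. An arm was assigned to a peak by its position within the precursor. No miRNA sequence was available, and none is printed.

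The count test was that of edgeR 4.0.16 under R 4.3.3 (filterByExpr filter, TMM library scaling, robust quasi-likelihood F test) in 1 model over the 15 libraries, with the contrast 36 h minus 24 h and Benjamini-Hochberg adjustment at 0.05. The common coefficient of variation between replicates in that model was 39.7%. Levels are counts scaled by TMM to 1000000 miRNA reads (CPM), and SE is the standard error of a log2 change. Arm ratios were tested with limma 3.58.1 in 1 model over the same libraries. Shares of reads were compared by exact permutation tests. DESeq2 1.42.0, library totals, limma on log2(RPM + 1) and log2(RPM + 0.1), 2 other filters, a model of the 6 libraries, a replicate block, 5 in place of 0.5 reads, a minimum of 100 reads and leaving out each library were tried as alternatives, as was leaving 48 h replicate 3 out of the model. The tests were also run on simulated counts, drawn independently for each miRNA and library, and the outcome is not given here. Wilson intervals cover counting error only.

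The comparison, its members and the 18 miRNA lists were chosen with earlier results of these data known, so the lists are described by counts and medians without a test. Named miRNAs are those called, all of the ovary and embryo list and of the neural list, the 10 most abundant, both arms of each pair whose ratio was called or differed by 1 or more on the log2 scale, and the 3 largest changes not called. No replicate pair was close to identical, with chi-square values of 421 to 1817 per degree of freedom between libraries of a time.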

Additional observations from a re-analysis of the deposited data

How the results depend on the processing

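Of the 20 called miRNAs, 11 remained called under every alternative in which they were tested, and no called miRNA changed direction. The filter of 10 CPM removed 1 of the 11, miR-286a. Losses of 8 without single libraries are given with each miRNA above. miR-34-5p was lost only in the model of the 6 libraries (adjusted p = 0.0601), which also lost miR-1 (0.109), miR-71-5p (0.163), miR-1891 (0.142), miR-276-5p (0.0846) and miR-275-3p (0.0627). That model called 3 miRNAs lower in place of 9, and 11 higher. Library totals in place of TMM gave 12 higher and 6 lower, against 11 and 9, and lost miR-275-3p (0.0629), miR-276-5p (0.0938) and miR-1891 (0.0523). Without a filter miR-275-3p was lost (0.0593), and with limma on RPM miR-276-5p was (0.0701 and 0.0716). DESeq2 called 26, of which 14 were higher, with 109 miRNAs given an adjusted p. Leaving out 1 library gave 14 to 24 calls, 8 to 12 higher and 4 to 15 lower. The fewest lower were called without 24 h replicate 3 (4) and 24 h replicate 1 (5), and the most without 36 h replicate 2 (15). Without 36 h replicate 1, 18 miRNAs were called in both directions together. Without 24 h replicate 3 the median log2 change of all tested miRNAs was 0.12, and without 36 h replicate 2 it was -0.19. Changes printed for those settings are not corrected for these medians, so a shift of the whole set is part of them. With RPM + 1, the log2 changes of the rare miR-286a, miR-2944b-3p and miR-124 shrank to 1.14, 2.53 and 0.78. The replicate block gave 32 calls, 14 higher and 18 lower, and 6 arm ratios. Deviations of same-numbered libraries at 24 and 36 h correlated at -0.23 to 0.07, and 0 of 3 libraries at each time correlated best with its own number. Over all 5 times 21 of 30 same-numbered pairs correlated over 0.1, among them every pair of 72 h PE with 24 h and with 36 h. Since not every pair did, the numbers were not taken to pair the libraries, though some times share deviations by number. The cause of these differences was not tested. Higher arm ratios numbered 2 in place of 1 with 5 reads added, with the 100-read minimum and with the replicate block, each by adding miR-8 (adjusted p = 0.0473, 0.0266 and 0.0281). Without 1 library, 4 to 6 ratios were called. Without 36 h replicate 2 the ratio of miR-1175 was called (log2 change -1.64, adjusted p = 0.0181). The sign of the uncorrected log2 change reversed for miRNAs that were not called. Without single libraries these were miR-2945-3p (range -0.29 to 0.25), miR-184 (-0.23 to 0.69), miR-14 (-0.24 to 0.13), miR-277-3p (-0.016 to 0.29) and miR-1175-3p (-2.89 to 0.38), and with the replicate block miR-1175-3p (0.18) and miR-1175-5p (0.13). The difference in the miRNA share of reads, 0.116 percentage points, ranged from -0.587 to 1.37 without single libraries, and that of miR-8-3p, -5.08 points, from -8.18 to -3.04. Depth limits the rarest miRNAs: 3 reads corresponded to 0.511 to 1.40 CPM.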

Other observations

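The share of AGO1-bound counts held by the rarer arm at 24 h PBM could be read for other pairs whose ratio was not called in the step. miR-308-3p held 2479 of the 2532 counts in the peaks of its pair (97.9%), beside 29.8% of the small RNA reads at 24 h and 28.4% at 36 h. miR-281-3p, of a gut-enriched pair, held 146 of 329 counts (44.4%), beside 0.558% of reads at 24 h and 0.375% at 36 h. miR-8-5p held 35 of 8189 counts (0.427%), beside 2.64% of reads at 24 h and 3.93% at 36 h. For bantam-5p, 31 of 2651 counts (1.17%) stood beside 6.94% and 6.55% of reads. Pairs therefore differed in both directions between the assays, which was not tested. These pairs were chosen after their values were seen.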
